A study of Mus musculus with 8 samples.

Results

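The transcriptome of LSK cells labelled wild type (WT) was described from 2 of the 8 samples in the series, the RNA libraries whose titles name the WT genotype. LSK cells are lineage-negative, Sca1-positive, Kit-positive cells sorted from bone marrow. The mice were of the C57BL/6 strain and carried no Hira deletion by their label. The labels give no age, sex or number of mice, and the files' own names carry the opposite genotype, so the libraries are called labelled WT replicate 1 and labelled WT replicate 2. The series also holds Hira knockout libraries and ATAC-seq libraries, in which a transposase cuts and tags accessible DNA. No comparison of genotypes was made here. All genes were ranked by mean TPM (transcripts as a share of the library, a level per length) after 37 genes with symbols starting mt- were left out and the remaining 45669 of 45706 genes were scaled back to a total of 1000000 in each library.

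The LSK gate holds the haematopoietic stem cells, which renew themselves for life, and the multipotent progenitors they give rise to. Stem cells divide rarely, whereas multipotent progenitors divide often and already carry transcripts of the lineages they can enter. Kit is the receptor for stem cell factor, Ly6a encodes the Sca1 antigen of the gate, Cd34 encodes a sialomucin and Flt3 a receptor tyrosine kinase, and the last pair are used to divide LSK cells into stem cells and progenitors.

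The libraries held 16.6 and 19.8 M expected counts, of which mt- genes took 40.8% and 51.7%, leaving 9.82 and 9.59 M counts for the genes ranked. Hira, the histone chaperone targeted in the study, stood at 30.7 TPM in replicate 1 and 24.5 TPM in replicate 2, with 311 and 314 expected counts. A count over the whole gene, without a library of the other genotype beside it, does not check the label. The 2 libraries differed in sex-linked transcripts. Xist, the RNA that coats the inactive X chromosome, was at 1242 TPM in replicate 1 and 11.0 TPM in replicate 2, while the Y-linked genes Ddx3y, Uty, Kdm5d and Eif2s3y were at 31.4, 44.8, 26.0 and 27.4 TPM in replicate 2 and at 0.0366, 1.26, 3.82 and 0 TPM in replicate 1. Sex cannot be told apart from any other difference between the libraries. The ATAC-seq libraries labelled WT showed the same split, with a peak at the Xist start in replicate 1 alone and peaks at the 4 Y-linked starts in replicate 2 alone.

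All 4 genes that define or divide the gate were expressed in both libraries. Kit was at 150 TPM in replicate 1 and 176 TPM in replicate 2. Cd34 was at 142 and 157 TPM. Flt3 was at 52.6 and 56.2 TPM, and Ly6a was lowest at 41.0 and 33.8 TPM. The order of the 4 genes was the same in both libraries, and Kit and Cd34 did not overlap in their ranges with Flt3 or Ly6a. Kit and Cd34, in contrast, overlapped: the lower Kit value lay below the higher Cd34 value. Ly6e, a relative of Ly6a outside the gate, stood at 1933 and 1823 TPM, and Ly6c2, a relative found on myeloid cells, at 401 and 200 TPM, so that the antigen used for sorting was not the main Ly6 transcript. Both of these were singled out after their values were seen.

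The 250 bases before the RefSeq start of Kit, Cd34 and Flt3 are shown because these genes are the identity of the sort and their starts lay under ATAC peaks in both labelled WT libraries (build GRCm38.p6, 5′ to 3′ on the gene's strand, each CG dinucleotide in capitals). The windows are chr5:75574737-75574986 on the plus strand for Kit, chr1:194938571-194938820 on the plus strand for Cd34 and chr5:147400490-147400739 on the minus strand for Flt3. They hold 17, 6 and 13 CG dinucleotides.
Kit: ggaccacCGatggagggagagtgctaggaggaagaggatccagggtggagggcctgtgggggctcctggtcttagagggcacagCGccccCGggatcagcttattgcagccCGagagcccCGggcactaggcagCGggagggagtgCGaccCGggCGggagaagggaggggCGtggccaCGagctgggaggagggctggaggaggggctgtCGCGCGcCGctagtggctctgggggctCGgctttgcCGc
Cd34: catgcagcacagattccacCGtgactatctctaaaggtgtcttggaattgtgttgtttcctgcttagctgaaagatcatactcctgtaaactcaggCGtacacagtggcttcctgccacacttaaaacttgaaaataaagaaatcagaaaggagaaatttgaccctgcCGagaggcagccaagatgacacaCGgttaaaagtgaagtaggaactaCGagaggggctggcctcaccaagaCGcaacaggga
Flt3: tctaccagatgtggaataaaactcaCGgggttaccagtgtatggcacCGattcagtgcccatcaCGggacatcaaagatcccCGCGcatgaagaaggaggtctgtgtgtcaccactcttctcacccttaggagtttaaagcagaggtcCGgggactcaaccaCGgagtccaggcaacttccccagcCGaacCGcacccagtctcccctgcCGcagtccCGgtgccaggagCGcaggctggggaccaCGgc
The authors' fold enrichment of the highest peak at these starts was 42.3 and 33.2 for Kit, 12.1 and 12.1 for Cd34, and 16.7 and 9.85 for Flt3. Ly6a had no window in the table used.

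Among stem cell surface proteins and receptors, all 19 measured members were at or above 1 TPM in both libraries, here called expressed, as were 54.6% of all protein-coding genes and 32.2% of all ranked genes, and 12 had a mean of at least 10 TPM. Adgrg1, an adhesion receptor, was highest with 416 and 296 TPM. Cd27, a receptor of the TNF family, followed at 193 and 173 TPM, and Cd48, a SLAM family protein used to mark progenitors and exclude stem cells, at 110 and 104 TPM. Markers used to isolate the most primitive stem cells were much lower than Cd48. Slamf1, which encodes CD150, was at 8.72 and 6.26 TPM, and Procr, the protein C receptor, was at 4.57 and 7.65 TPM. Fgd5 was at 5.45 and 2.46 TPM, and Esam, an endothelial adhesion molecule, was the lowest of the list at 1.63 and 1.91 TPM. Tek, the angiopoietin receptor, and Robo4 lay between these at 5.90 and 4.90 TPM and at 5.89 and 4.37 TPM. Every one of these 6 low markers lay below every value of Cd48, Cd27 and Adgrg1, whereas among themselves Slamf1, Procr, Tek, Robo4 and Fgd5 overlapped in part. In bulk RNA, fewer cells of a type and less RNA per cell cannot be told apart.

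Of 35 transcription factors of stem and progenitor cells, 32 were expressed and 26 had a mean of at least 10 TPM. Myc, a driver of growth, led at 662 and 517 TPM. Myb, which keeps progenitors proliferating, was at 478 and 411 TPM, and Ikzf1, the Ikaros factor of lymphoid priming, at 371 and 330 TPM. Etv6 and Lmo2, both needed for adult or embryonic blood formation, were at 207 and 179 TPM and at 133 and 136 TPM. These 5 held the same order in both libraries. Factors linked more closely to the stem cell state lay lower. Hlf was at 48.8 and 56.3 TPM, and Mecom, which encodes Evi1, was at 17.4 and 24.4 TPM. At the foot of the list, Nr4a1 was at 2.87 and 1.78 TPM and Hoxb4 at 1.83 and 0.355 TPM. Hoxb5 was at 0.841 and 0.577 TPM with 11 and 10 counts, and Sox17, a factor of fetal stem cells, was at 0.402 and 0.200 TPM with 4 and 3 counts. Sox17 was the one factor of the list below 0.5 TPM in both libraries, here called silent.

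Of 28 cytokine and niche receptors, 26 were expressed. Below Kit came Ifnar2, a chain of the type I interferon receptor, at 135 and 123 TPM, and Ifngr1, a chain of the interferon gamma receptor, at 125 and 128 TPM. Cxcr4, which holds stem cells at their CXCL12-producing niche, was at 130 and 110 TPM, and Il2rg, the common gamma chain, was at 96.7 and 106 TPM. The ranges of Ifnar2, Ifngr1 and Cxcr4 overlapped, so their order was not set. The receptors at the other end were Tek, Il3ra at 6.60 and 2.60 TPM, the leptin receptor Lepr at 0.749 and 0.377 TPM, and the BMP receptor Bmpr1a, silent at 0.219 and 0.200 TPM with 10 and 9 counts.

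**Figure D1:**
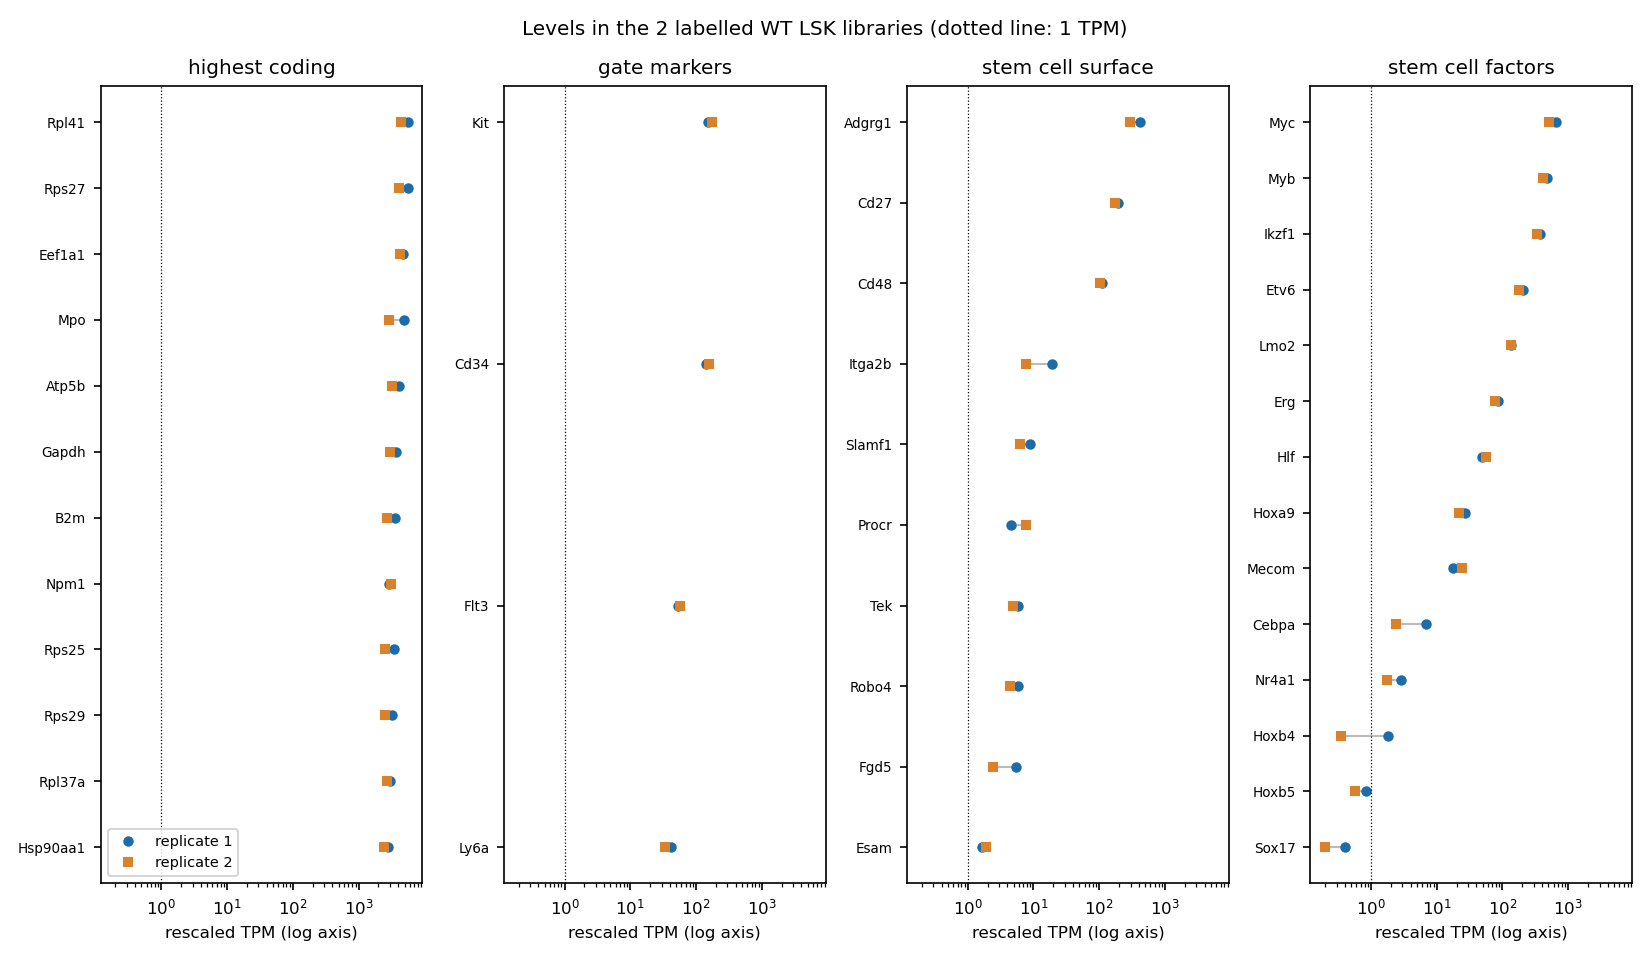
Rescaled TPM in each labelled WT library (log axis) for the 12 highest protein-coding genes, the 4 gate markers and the stem cell surface genes and transcription factors named in the text. Circles are replicate 1 and squares replicate 2. The gate markers lie between 33.8 and 176 TPM, above Procr and Slamf1 and below the 12 highest coding genes.

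A large part of TPM lay in few genes. The 10, 100 and 1000 highest genes held 27.4% ± 4.14, 45.7% ± 3.23 and 69.9% ± 1.67 of TPM (SD, n = 2). These shares depend on the unit: that of the 100 highest was 23.1% on CPM, 26.7% among protein-coding genes alone and 72.1% with mt- genes kept. The very top of the ranking was not made of known proteins: the 10 highest entries were all gene models without an established name, led by ENSMUSG00000089855 at 94789 and 82610 TPM and Gm28661 at 28457 and 45677 TPM. Among the 20 highest, 12 were such models, 2 were ribosomal protein pseudogenes, 1 was Rn7sk, the small nuclear RNA that holds back transcription elongation, at 4111 and 4240 TPM, and 5 were protein-coding. Of the 20, 9 had an effective length under 200 bases, which turns few reads into a high TPM. Genes of that length took 26.8% and 28.9% of TPM but 0.903% and 0.931% of counts.

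The 5 protein-coding genes among the 20 highest were Rpl41 at 5548 and 4470 TPM, Rps27 at 5587 and 4061 TPM, the translation elongation factor Eef1a1 at 4712 and 4327 TPM, Mpo at 4848 and 2904 TPM and Atp5b, a subunit of the mitochondrial ATP synthase, at 4104 and 3225 TPM. Mpo encodes myeloperoxidase, the main enzyme of granulocyte primary granules, and was the one lineage gene among them. The ranges of these 5 genes overlapped with their neighbours in rank, and the widest gap between the libraries was that of Mpo.

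Genes for cytosolic ribosomal proteins took 9.72% of TPM in replicate 1 and 8.14% in replicate 2. The mean of 8.93% was 3.41% on CPM, 4.49% with mt- genes kept and 16.2% among protein-coding genes. They filled 11 of the 20 and 54 of the 100 highest protein-coding places, and 80 of 81 were expressed. Within this one complex the levels spread widely: Rpl41, Rps27, Rps25, Rps29 and Rpl37a were highest, with Rps25 at 3415 and 2486 TPM, and Rpl27, Rpl5 and Rpl12 were at 98.3 and 100.3, 58.4 and 65.5, and 59.7 and 57.6 TPM. Rps12 was listed at 0 in both libraries. Its start lay under peaks of 117-fold and 83.7-fold enrichment, and its retrogene copy Rps12l1, singled out after its values were seen, was at 803 and 680 TPM. Reads of ribosomal protein genes and their many processed copies can be split by the counting, so single values within this family are uncertain.

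The other large programs were those of growth. All 25 translation factors were expressed and 20 had a mean of at least 100 TPM. After Eef1a1 came Pabpc1, the poly(A)-binding protein, at 1848 and 1640 TPM, and Eef2 at 937 and 746 TPM. Npm1, the nucleolar chaperone nucleophosmin, was at 2919 and 3088 TPM and led the 21 nucleolar and ribosome biogenesis genes, all expressed. Ncl, nucleolin, was at 567 and 508 TPM. Gapdh led the glycolysis enzymes at 3750 and 2967 TPM, followed by Ldha at 781 and 725 TPM, and 19 of the 20 enzymes were expressed. Actb, cytoplasmic actin, was at 2589 and 2399 TPM, the tubulin Tuba1b at 2018 and 1992 TPM, and the chaperone Hsp90aa1 at 2835 and 2414 TPM. B2m, the light chain of MHC class I and the seventh protein-coding gene, was at 3529 and 2685 TPM and was singled out after its values were seen.

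Genes of the dividing cell were expressed throughout. All 23 genes of G2 and mitosis and all 24 genes of S phase and replication had a mean of at least 10 TPM. Top2a, the topoisomerase that untangles sister chromatids, was at 498 and 509 TPM, and Mki67, the proliferation antigen, at 335 and 357 TPM. Pcna, the sliding clamp of the replication fork, was at 366 and 318 TPM. The lowest mitotic member was Aurka at 20.97 and 21.9 TPM, and the lowest replication member was Fen1 at 18.4 and 16.4 TPM. Among G1 regulators, Cdk6 and Cdk4, the kinases that drive G1, were at 314 and 287 TPM and at 255 and 287 TPM. The inhibitors were lower. Cdkn1a, which encodes p21, was at 32.7 and 25.1 TPM, and Cdkn1c, which encodes the p57 inhibitor of quiescent stem cells, was at 1.28 and 1.02 TPM with 17 and 14 counts. Cdkn2b was at 0.439 and 0 TPM, and Cdkn2a was listed at 0 in both libraries.

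The HIRA complex loads histone H3.3 outside replication. All 12 members of a list of HIRA complex, H3.3 and other histone chaperone genes were expressed. The H3.3 genes H3f3a and H3f3b were at 308 and 296 TPM and at 207 and 179 TPM, and Atrx, which deposits H3.3 with Daxx, was at 200 and 177 TPM. The 4 lowest members were Hira itself, the HIRA complex subunits Ubn1, at 30.7 and 23.2 TPM, and Cabin1, at 31.2 and 30.2 TPM, and the chaperone Asf1b, at 34.1 and 26.1 TPM. The ranges of these 4 overlapped.

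Transcripts of mature lineages were not absent from these cells. Of 203 genes in 9 lists of lineage or tissue genes, 141 (69.5%) were expressed in both libraries, beside 54.6% of protein-coding genes. Silent genes numbered 39 (19.2%), beside 56.4% of all ranked genes and 35.9% of protein-coding genes, and 21 with a limit of 0.1 TPM. The split followed the tissue: 24 of 31 genes of tissues outside blood were silent, against 15 of the other 172. For a silent gene, 3 counts were worth a median of 0.256 and 0.305 TPM and at most 2.07 TPM, so a transcript of a short gene could go uncounted at higher levels.

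Granulocyte and monocyte genes were the strongest lineage list, with a median of 47.5 TPM over 26 genes, 23 of them expressed and none silent. After Mpo came S100a8 and S100a9, the calprotectin subunits of neutrophils, at 1546 and 1004 TPM and at 995 and 818 TPM. Elane, neutrophil elastase, was at 847 and 361 TPM, and Lyz2, lysozyme, at 496 and 429 TPM. Products of early granules (Mpo, Elane) and of later neutrophils (S100a8, S100a9) were present together. The lowest members were Cebpe at 5.12 and 0.599 TPM, Stfa3 at 1.92 and 1.86 TPM, Lyz1 at 1.99 and 0.599 TPM and Cd14 at 0.841 and 0.178 TPM. The summed level of the list was 11088 TPM in replicate 1 and 7000 TPM in replicate 2. How far cells outside the gate contributed to this sum was not tested.

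Erythroid genes were expressed in 18 of 21 cases. Car1, a carbonic anhydrase of red cell progenitors, was at 846 and 1113 TPM, and Car2 at 279 and 309 TPM. Ermap, Tfrc (the transferrin receptor) and Klf1 (the erythroid master regulator) followed at 90.2 and 125, 92.7 and 105, and 67.8 and 68.7 TPM. Slc4a1, band 3 of the mature red cell membrane, was low at 1.65 and 0.688 TPM. Hbb-y, an embryonic globin, was at 0 and 0.843 TPM, and Trim10 was silent.

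Megakaryocyte genes lay lower, with a median of 3.10 TPM over 18 genes and 14 expressed. Pf4, platelet factor 4, was at 94.4 TPM in replicate 1 and 17.2 TPM in replicate 2, Itga2b, the CD41 integrin, at 19.03 and 7.70 TPM, and Selp, P-selectin, at 12.1 and 10.2 TPM. Gp1bb was at 1.499 and 0.111 TPM and Clec1b at 2.30 and 0.311 TPM. Gp6, the collagen receptor of platelets, was at 0 and 0.777 TPM, and Tubb1, the tubulin of the platelet rim, was listed at 0. Mast cell, basophil and eosinophil genes were expressed in 12 of 16 cases. By mean they were led by Prg2, eosinophil major basic protein, at 134 and 15.2 TPM, and by the basophil protease Mcpt8 at 66.4 and 43.3 TPM. Prg2 led in replicate 1 alone: in replicate 2 it lay below Mcpt8, below the mast cell protease Cpa3, at 49.2 and 45.4 TPM, and below Prss34, at 36.6 and 22.4 TPM. Mcpt4 was listed at 0, Tpsab1 was at 0 and 0.266 TPM and Il5ra at 0 and 0.333 TPM.

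B cell and plasma cell genes had a median of 17.0 TPM and 22 of 26 were expressed. Ighm and Igkc, the mu heavy and kappa light chain constant regions, were at 784 and 701 TPM and at 748 and 699 TPM. Igll1, a surrogate light chain of B cell precursors, was at 240 and 222 TPM, and Xbp1 and Cd79a were at 91.5 and 58.3 TPM and at 69.3 and 51.4 TPM. Other genes of antibody-secreting cells were spread from the middle of the list to its foot. Jchain, the joining chain, was at 26.3 and 13.5 TPM and Mzb1 at 15.6 and 12.5 TPM. Irf4 and Sdc1 were lower, at 5.32 and 3.42 TPM and at 3.95 and 3.04 TPM, and Prdm1 and Tnfrsf17 were among the lowest. The lowest members were Blk at 0.676 and 1.44 TPM, Fcer2a at 0.0548 and 1.15 TPM, Prdm1 at 0.658 and 0.178 TPM and Tnfrsf17 listed at 0. T cell and NK genes had a median of 2.24 TPM and 14 of 25 were expressed, close to the 54.6% of all protein-coding genes. Nkg7, a granule protein of cytotoxic cells, was an exception at 272 and 231 TPM, followed by Trbc2 at 31.3 and 21.2 TPM and Lat at 18.7 and 13.1 TPM. The T-box factors Tbx21 and Eomes were silent at 0.219 and 0.311 TPM and at 0.439 and 0 TPM, and Gzma, granzyme A, had 1 count in each library.

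Among genes of multipotent and lymphoid-primed progenitors all 21 were expressed. At the lower end of this list were Il12rb2 at 12.4 and 14.0 TPM, the chemokine receptor Ccr9 at 11.2 and 12.4 TPM, Lck at 12.3 and 7.37 TPM and the recombinase Rag1 at 10.9 and 7.12 TPM. Dendritic cell and MHC class II genes were expressed in 16 of 17 cases. Cd74, the invariant chain, was at 484 and 324 TPM, and the class II genes H2-Aa and H2-Ab1 were at 313 and 176 TPM and at 238 and 192 TPM. Cd209a, the lowest of that list, was at 0.804 and 0.200 TPM.

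Genes of marrow stroma and endothelium were expressed in 16 of 24 cases, beside 54.6% of all protein-coding genes. They were led by Runx2, a bone regulator, at 116 and 102 TPM, Pecam1 (CD31) at 65.8 and 46.7 TPM and Emcn at 20.9 and 20.04 TPM. The lowest members were structural products. Col1a1 and Col3a1, the fibrillar collagens, were at 0.0183 and 0.111 TPM and at 0.0183 and 0 TPM, and Bglap, osteocalcin, and Lum, lumican, were listed at 0. Of the 31 genes of other tissues, 11 had no count in either library, among them Krt5, Krt14, Prm1 and Tnp1 of epidermis and testis and Alb, serum albumin. The 7 expressed were led by Cela1 at 28.6 and 33.8 TPM and Mbp, myelin basic protein, at 27.8 and 26.8 TPM, both with at least 199 counts in each library. Lgals4, a galectin of gut, was at 10.8 and 5.84 TPM.

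**Figure D2:**
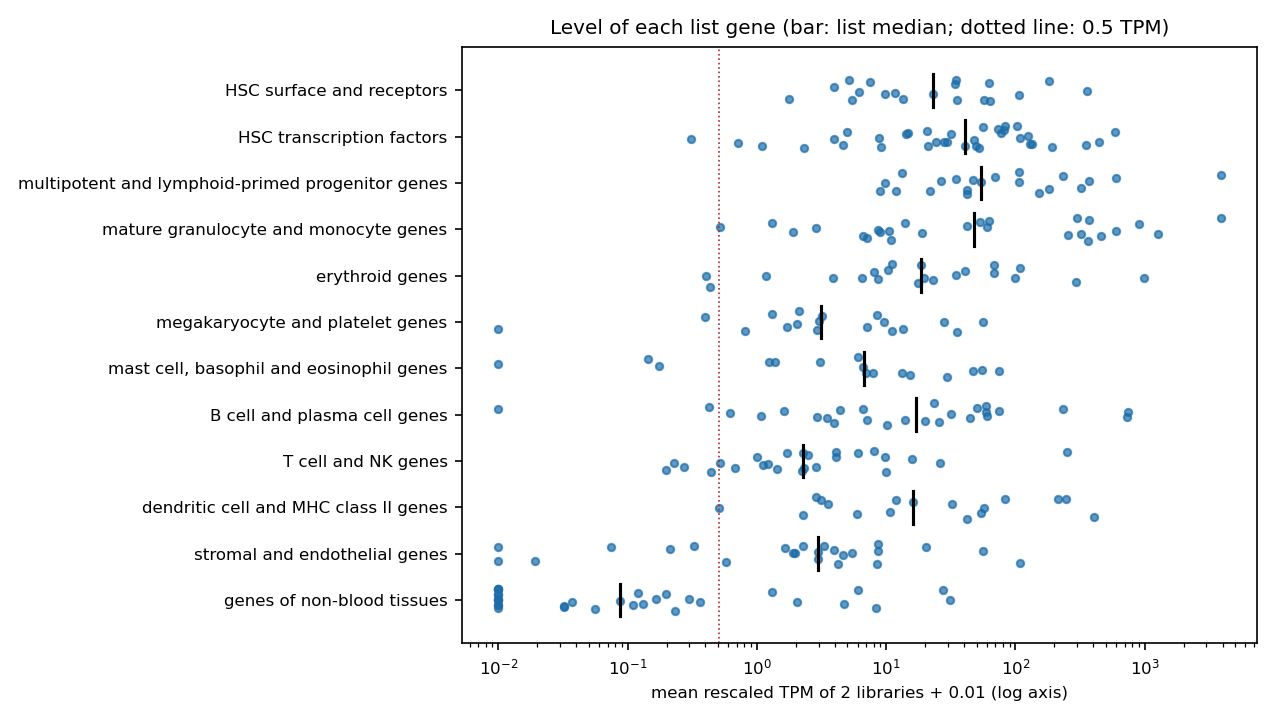
Mean rescaled TPM of each gene (points, log axis with a small offset so that zeros show) in 12 gene lists, with the list median as a bar and the silent limit of 0.5 TPM as a dotted line. Points of the non-blood list lie mostly left of the line, while the granulocyte list has no member silent in both libraries.

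The spread between the libraries was taken over 14562 genes with a mean of at least 1 TPM and at least 20 summed counts. Levels followed each other closely across genes (Spearman's rho 0.959; genes of one pair of libraries share depth and preparation and are not replicates). The median distance was 0.24 on the log2(TPM + 1) scale, and 78.3% of the genes lay within 1.5-fold on TPM itself. That distance was 0.38 with mt- genes kept. In all, 522 genes (3.58%) were at least 2-fold higher in replicate 2 and 754 (5.18%) at least 2-fold higher in replicate 1, again on TPM itself. Of all compared genes 63.2% were higher in replicate 1 and 36.8% in replicate 2 by any amount. With 1 library on each side these counts have no test. Which side had more genes depended on the scaling: with TMM factors on CPM the counts were 382 toward replicate 2 and 337 toward replicate 1, on CPM alone 811 and 659, and among protein-coding genes rescaled by themselves 483 and 416. The distance shrank with level, from a median of 0.36 at 1 to 3 TPM to 0.19 at 30 to 100 TPM. The biological coefficient of variation, the spread beyond counting error estimated by edgeR, was 16.4% in all. It was 27.5% in the 3648 genes of lowest count and 12.3% in the 3648 of highest count.

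Values were on the whole slightly lower in replicate 2, with a median log2 ratio of -0.11, so list differences are given relative to that median. The median of the gate markers was 0.23 above, of the stem cell factors 0.11 below and of the stem cell surface list 0.13 below. No gate marker was 2-fold apart. Of the 33 stem cell factors compared, 2 were, Cebpa (6.87 and 2.42 TPM) and Hoxb4, and of the 19 surface genes 2, Itga2b and Fgd5. All 4 lay toward replicate 1. Of all compared genes 5.18% were at least 2-fold higher in replicate 1 and 3.58% in replicate 2. Expected counts of Cebpa, Hoxb4 and Itga2b were also at least 2-fold apart. Those of Fgd5 were not, so its gap was one of TPM and not of reads. Genes of multipotent and lymphoid-primed progenitors lay 0.35 below, with 16 of 21 higher in replicate 1, and this list shares Mpo, Elane, Ctsg and Prtn3 with the granulocyte list. The granulocyte and monocyte list lay 0.48 below the common median. Of its 24 compared genes 20 were higher in replicate 1, beside 63.2% of all compared genes. At least 2-fold higher there were 6 of the 24, beside 5.18% of all compared genes. The mast cell and basophil list lay 0.50 below, with Prg2 and Epx (12.01 and 1.82 TPM) far apart, and the megakaryocyte list 0.46 below, or 0.18 below with mt- genes kept. T cell and NK genes lay 0.37 below, or 0.21 below among protein-coding genes alone, and glycolysis enzymes 0.29 below. B cell and dendritic cell genes were nearer to the common median, at 0.19 and 0.07 below. Immediate-early genes, which respond to handling and signals within minutes, lay 0.43 below, with Fos at 47.7 and 28.5 TPM and Dusp1 at 98.9 and 63.7 TPM. Erythroid genes lay 0.15 above, with 12 of 19 compared higher in replicate 2, beside 36.8% of all compared genes. The erythroid genes at least 2-fold apart, 3 of the 19, all lay toward replicate 1, beside 5.18% of all compared genes. Among these 3 were the alpha globin genes Hba-a2 (33.9 and 12.5 TPM) and Hba-a1 (17.0 and 3.64 TPM). G2 and mitosis genes lay 0.20 above, with 17 of 23 mitotic genes higher in replicate 2. Ube2c, the ubiquitin-conjugating enzyme of mitotic exit, was the widest of these at 211 and 315 TPM and was singled out after its values were seen. Each of these lists kept its side of the common median under every scaling tried. Much of that was fixed in advance. A scaling that multiplies a whole library by a constant nearly cancels in a difference from the common median. The share of mt- counts and the sex-linked transcripts also differed between the libraries, as given above, and their part in these list differences was not tested.

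**Figure D3:**
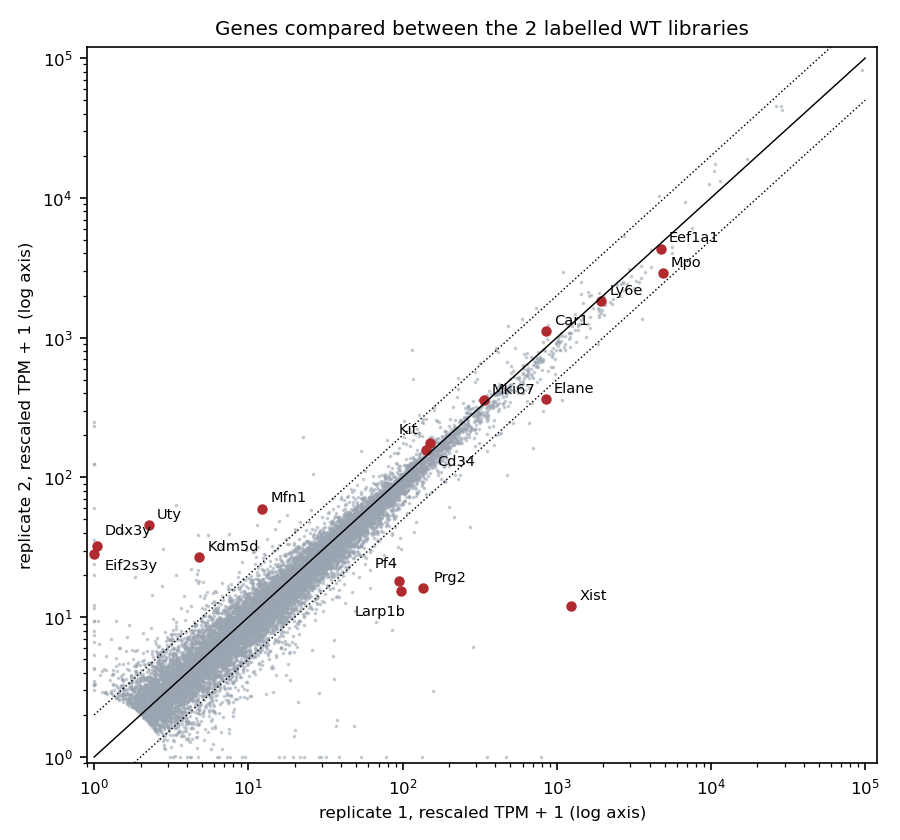
Rescaled TPM + 1 of the compared genes in replicate 1 and replicate 2 (both axes log), with the line of equality and dotted lines at 2-fold of TPM + 1. Named genes are in red: Xist lies far below the line and the Y-linked genes far above, while Kit, Cd34 and Mki67 lie close to it.

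**Figure D4:**
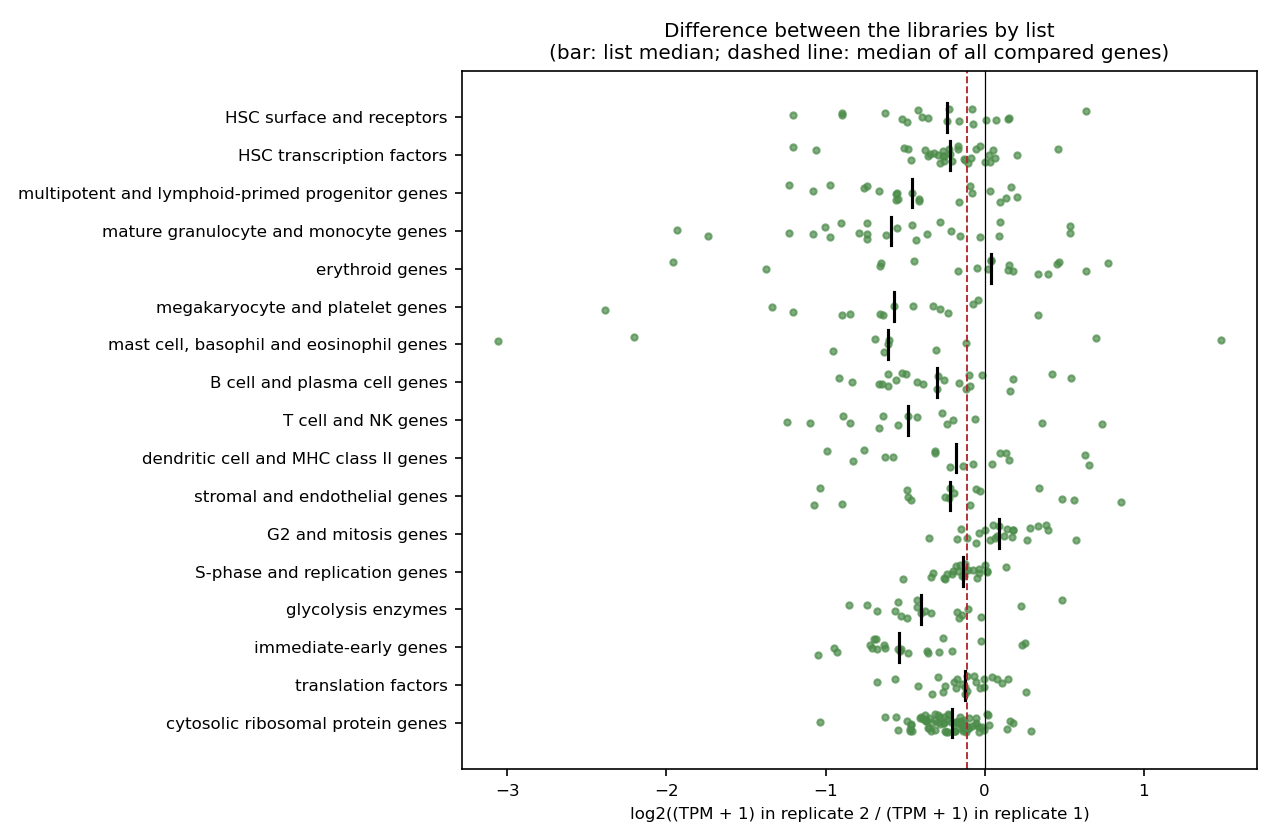
Log2 ratio of replicate 2 over replicate 1 for each compared gene (points) in 17 lists, with list medians as bars and the median of all compared genes, -0.11, as a dashed line. Granulocyte, mast cell, megakaryocyte and immediate-early genes lie mostly left of the dashed line, and mitotic genes mostly right of it.

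The genes with the largest ratios among those of at least 10 TPM were mostly short RNAs. Of the 20 picked, 18 had under 20 counts and 19 an effective length under 200 bases, such as Mir3112 at 185 TPM from 2.91 counts in replicate 1 and none in replicate 2. With at least 20 counts and 200 bases asked for, a choice made after the values were seen, the widest genes besides the sex-linked ones toward replicate 1 were Hist1h2ao (52.6 and 0 TPM), Prg2, the light chain region Iglc3 (66.4 and 8.17 TPM), Larp1b and Pf4. Toward replicate 2 they were the heavy chain segment Ighv2-5 (0.530 and 39.96 TPM), Mfn1, the meiotic cohesin Rec8 (3.69 and 16.5 TPM) and Fanci. In part of these the reads did not differ. Mfn1, a mitochondrial fusion protein, was at 11.3 and 58.7 TPM from 343 and 370 counts, with an effective length of 3829 and 761 bases, and Larp1b was at 96.2 and 14.3 TPM from 205 and 194 counts, with 270 and 1637 bases. Of the protein-coding genes at least 2-fold higher in replicate 1, 217 of 487 were not 2-fold apart in counts, and toward replicate 2 this held for 87 of 275.

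The starts of high and silent genes were described by sequence and by openness. In the 300-base RefSeq windows (250 bases before to 50 after the start), the 72 of the 100 highest protein-coding genes with a window held a median of 22 CG dinucleotides, the 29 of 39 silent lineage genes with a window 4, and all 16564 protein-coding genes with a window 15. The same medians, 22 and 4, were found over all expressed and all silent protein-coding genes. The ETS core CCGGAA, on either strand, was found in 40.3% of the highest genes, 6.90% of the silent lineage genes and 21.4% of all protein-coding windows, beside 32.6% of all expressed and 6.39% of all silent protein-coding genes. The TATA sequence TATAAA, on the gene's strand in the first 250 bases, was found in 11.1%, 20.7% and 8.69% of them, beside 4.64% of expressed and 14.8% of silent protein-coding genes. A match describes these letters and is not evidence of binding. CCGGAA itself holds a CG, so its shares are not independent of the CG counts above. A start was called open when an ATAC peak overlapped the window by at least 1 base in both labelled WT libraries. The authors' lists held 79566 peaks in replicate 1 and 63423 in replicate 2. How far this difference set the starts with a peak in 1 library alone was not tested. Open starts were found for 97.2% of the 72 highest genes, 87.2% of expressed protein-coding genes, 7.58% of silent protein-coding genes and 1 of the 29 silent lineage genes.

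The windows of 4 genes are shown as the ends of this range: Eef1a1, a top gene with a CG-rich open start (chr9:78481725-78481974, minus strand), Mpo and Elane, top lineage genes with CG-poor starts (chr11:87793534-87793783 and chr10:79886062-79886311, plus strand), and Alb, listed at 0 (chr5:90460620-90460869, plus strand). The 250 bases before the start are given 5′ to 3′ with each CG in capitals, and hold 18, 2, 3 and 2 of them.
Eef1a1: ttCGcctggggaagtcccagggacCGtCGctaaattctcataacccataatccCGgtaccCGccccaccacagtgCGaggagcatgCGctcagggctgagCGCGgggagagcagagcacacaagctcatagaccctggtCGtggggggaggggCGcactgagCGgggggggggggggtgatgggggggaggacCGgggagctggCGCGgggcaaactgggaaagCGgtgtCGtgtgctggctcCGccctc
Mpo: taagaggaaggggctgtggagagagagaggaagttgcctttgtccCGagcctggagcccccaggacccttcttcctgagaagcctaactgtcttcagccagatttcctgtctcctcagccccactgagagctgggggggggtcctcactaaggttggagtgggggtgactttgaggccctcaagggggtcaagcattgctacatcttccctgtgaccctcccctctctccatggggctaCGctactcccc
Elane: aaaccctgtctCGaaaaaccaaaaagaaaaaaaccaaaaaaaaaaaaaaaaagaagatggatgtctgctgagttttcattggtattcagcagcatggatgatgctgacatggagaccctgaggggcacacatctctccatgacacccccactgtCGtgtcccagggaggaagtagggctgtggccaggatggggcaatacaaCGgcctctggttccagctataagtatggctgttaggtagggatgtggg
Alb: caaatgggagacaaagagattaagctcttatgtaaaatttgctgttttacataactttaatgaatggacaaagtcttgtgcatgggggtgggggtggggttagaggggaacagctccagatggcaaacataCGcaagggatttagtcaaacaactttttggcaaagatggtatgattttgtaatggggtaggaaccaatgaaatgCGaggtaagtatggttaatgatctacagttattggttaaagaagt
The Eef1a1 start lay under peaks of 18.3-fold and 13.1-fold enrichment. The Mpo start had a peak of 5.003-fold in replicate 1 alone, and the Elane and Alb starts had none, although Elane was at 847 and 361 TPM.

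Of protein-coding genes with a mean of at least 10 TPM and a window, 94.2% had an open start (5900 of 6260). Every such gene of the G2, S phase, glycolysis, translation factor and HIRA lists did. Of 18 granulocyte and monocyte genes at this level 5 did, and 10 had a peak in neither library, among them S100a9, Elane, Ngp, Prtn3 and Lcn2. The open ones included S100a8, Lyz2, Ctsg and Ly6c2, with peaks between 3.94-fold and 12.5-fold. None of 5 mast cell and basophil genes and 1 of 9 B cell genes (Xbp1) had an open start in both. The lists of the LSK cells themselves were also under the share of all genes, with 6 of 17 multipotent and lymphoid-primed progenitor genes and 6 of 11 stem cell surface genes open. Of 12 erythroid genes 11 were open, with Klf1 at 29.4-fold and 26.3-fold and Hbb-bt at 80.0-fold and 43.3-fold. Granulocyte and erythroid genes both had CG-poor windows, with medians of 3 and 4 CG. Over all genes of this level, windows with 0 to 5 CG were open in 52.5% of cases, with 6 to 10 in 84.2%, and with at least 21 in 98.2%. Pax5, the B cell identity factor, departed from that pattern. Its window held 23 CG and it was at 64.6 and 35.9 TPM, yet no peak was called at it. Among stem cell factors 13 of 17 were open, and Erg, Hoxa9 and Mecom had no peak at the windows used. These genes were picked out after their peaks were seen, and other start sites of the same genes were not all covered by the windows. Trim10, the one open silent lineage gene, had peaks of 93.3-fold and 80.4-fold at a level of 0.494 and 0.288 TPM.

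**Figure D5:**
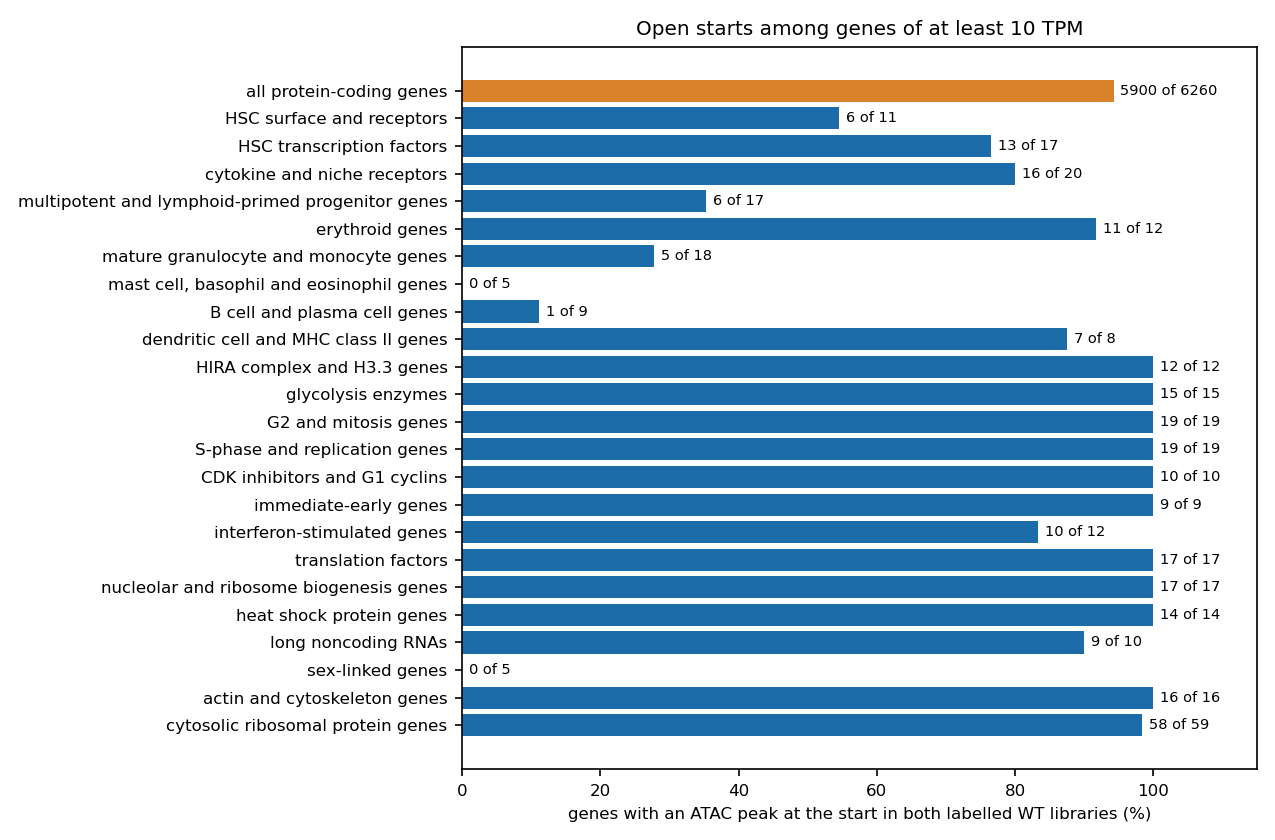
Percent of genes of at least 10 TPM whose RefSeq start window carried an ATAC peak in both labelled WT libraries, for lists with at least 5 such genes and for all protein-coding genes (orange). Numbers beside the bars are genes open of genes with a window; granulocyte, mast cell, B cell, multipotent progenitor and stem cell surface lists stand well under 94.2%, and the erythroid list at 11 of 12. The sex-linked genes had peaks in 1 library alone.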

How the data were processed

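Per the labels' protocols, total RNA of sorted LSK cells was amplified (NuGEN Ovation) and prepared by tagmentation (Nextera XT). The submitters' processing notes name STAR 2.5.3a, RSEM 1.3.0, Bowtie2 2.2.9, MACS2 2.1.1 and Trim Galore 0.4.5 and the build GRCm38, without giving each step. Per the file headers, the deposited gene tables hold RSEM's expected counts (estimates, not normalized), TPM, effective length and the posterior SD of each count, a score of how surely reads were assigned. The ATAC files hold the authors' fold enrichment, a ratio to background, per peak and library. No library was pooled by these sources, and strand is not stated, so antisense pairs cannot be told apart.

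Sample titles gave the groups. TPM were rescaled to a total of 1000000 without mt- genes. Genes were called expressed at 1 TPM in both libraries and silent below 0.5 TPM in both. Log2 ratios used log2(TPM + 1), and calls at 1.5-fold and 2-fold used TPM itself. The 2 libraries form 1 group, so no p-value was computed, and the labels say no more than that they are separate samples. The coefficient of variation came from edgeR 4.0.16 in R 4.3.3 (rounded expected counts, TMM, filterByExpr, intercept only) and was tested on simulated data. Other steps used Python 3.11.15 with pandas 2.3.3 and scipy 1.17.1. A symbol was found for 45143 of 45706 gene IDs, and 5 list symbols were not found. Biotypes and start windows came from RefSeq tables of GRCm38.p6.

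Named genes were the 20 highest, the gate markers, Hira, up to 5 highest and 4 lowest genes of each list, the stem cell markers, the sex-linked genes and the 10 widest ratios each way. Other genes were named after their values were seen. Some genes of these lists are not reported here. The members and lists were chosen with earlier results of these data known. Alternatives changed the scaling, filters, thresholds, pseudocount and library used.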

Additional observations from a re-analysis of the deposited data

How the results depend on the processing

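The 2 libraries of 1 group allow a description of spread and no test. No paired analysis was possible because all results rest on 1 group of 2 libraries. Depth limits genes of low count most, and a short effective length makes TPM of few reads large.

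The share of the 100 highest genes, 45.7%, was 72.1% with mt- genes kept, 23.1% on CPM of expected counts, 36.6% with effective lengths of at least 200 and 26.7% among protein-coding genes. In the same order the ribosomal protein share, 8.93%, was 4.49%, 3.41%, 10.8% and 16.2%, and the median distance between the libraries, 0.24, was 0.38, 0.21, 0.23 and 0.22 (log2). That distance was 0.20 with TMM factors, 0.20 at a mean of at least 10 TPM and 0.27 with a pseudocount of 0.1. Genes at least 2-fold higher in replicate 2, 522, numbered 182 with mt- genes kept, 811 on CPM and 86 at a mean of at least 10 TPM. Those higher in replicate 1, 754, numbered 416 among protein-coding genes, 337 with TMM factors and 168 at 10 TPM. On CPM, with TMM factors and among protein-coding genes the larger count was toward replicate 2. The median log2 ratio of all compared genes, -0.11, was -0.35 with mt- genes kept and 0.03 among protein-coding genes.

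The coefficient of variation, 16.4%, was 22.8% without a filter and 16.5% with mt- genes kept. Silent lineage genes numbered 21 below 0.1 TPM instead of 39, and open starts among them 2 instead of 1 with a peak in either library. Without replicate 1 or 2, expressed genes numbered 16136 and 16101 and silent lineage genes 47 and 44.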

Other observations

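Surface antigens outside the gate reached higher levels than the gate markers. Among 88 genes with symbols of the CD antigens, 60 were expressed, beside 54.6% of all protein-coding genes. Of the 88, 11 had a mean of at least 100 TPM. Cd24a, a mucin-like antigen, led with 1010 and 948 TPM. Cd44, the hyaluronan receptor, was at 469 and 380 TPM, and Cd47, the signal that keeps macrophages from engulfing a cell, at 420 and 340 TPM. All 3 lay above every value of Kit. Cd38, which marks mouse stem cells within the gate, was at 4.31 and 4.30 TPM, nearly the same in both libraries.

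Of 39 genes in the Hox clusters 8 were expressed and 24 were silent, beside 54.6% and 35.9% of all protein-coding genes. The highest were Hoxa9, at 26.5 and 22.0 TPM, and Hoxa7, at 13.3 and 14.2 TPM. Hoxa5, Hoxa3, Hoxa6 and Hoxa10 followed between 2.04 and 5.06 TPM, so that the 6 highest Hox genes all lay in the A cluster.

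Transcripts of replication-dependent histone genes typically lack a poly(A) tail. Genes with symbols of the Hist clusters were counted by symbol alone, so not every member need be of this kind. Of 68 such genes 54 were expressed, beside 54.6% of all protein-coding genes, and 44 had a mean of at least 10 TPM. Hist1h4d was highest at 858 and 977 TPM. Near-identical copies can share reads in this family, so single values are uncertain: Hist1h2ao had 108 counts in replicate 1 and none in replicate 2, whereas the whole family took 0.389% and 0.385% of TPM.

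Several of the highest unnamed models differed between the libraries in the same direction as the mt- genes. The ratio of mt- to other TPM was 1.47 times higher in replicate 2. CT010467.1 was at 28920 and 42514 TPM, Gm28437 at 10517 and 15453 TPM and Gm10222 at 10677 and 17585 TPM. Their log2 ratios were 0.56, 0.56 and 0.72, against -0.11 for the median gene. Gm28661 and Gm17571 also rose, with 0.68 and 0.79, while the highest model, ENSMUSG00000089855, was lower in replicate 2 with -0.20. What RNA each of these models stands for was not examined, and whether reads of mt- genes were assigned to any of them was not tested.

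The long noncoding RNA of the Rosa26 locus, Gt(ROSA)26Sor, was at 10.5 TPM in replicate 1 and 30.7 TPM in replicate 2, with 73.3 and 203 counts. Dcbld2, a membrane protein, was the most abundant protein-coding gene among the 15 widest ratios toward replicate 2, with 229 and 517 TPM. Both were noticed after their values were seen.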
